A study of Homo sapiens with 12 samples.

Results

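Interferon-stimulated genes are the genes that cells switch on when interferon binds its receptors. They were followed here as a list of 41 symbols in MCF-12A, a non-tumour breast epithelial cell line, treated with TGFbeta1 or vehicle. The genes were chosen by symbol from the 2 deposited expression tables, and the values of their transcripts were summed per gene. Of the 41 symbols, 38 were listed in the first table among 13407 genes, and 32 in the second among 11504 genes. The 32 were also among the 38, so that 38 of 13555 genes in either table are described. MX2, XAF1 and RSAD2 were in neither table, and IFI27, OAS2, HERC5, USP18, EPSTI1 and CMPK2 were in the first only.

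Total RNA was sequenced from 12 libraries. The first set held the TGFbeta1 libraries 1 to 3 and the control libraries 1 to 3, and the second set the TGFbeta1 libraries 4 to 6 and the control libraries 4 to 6. Within each set 3 libraries of MCF-12A cells given TGFbeta1, a secreted growth factor, were compared with 3 libraries of the same line given vehicle. The labels give no dose, no duration and no difference between the sets, and they do not say whether the libraries of a group were separate cultures. The spread that the p-values rest on may therefore be technical.

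Type I and type III interferons act through receptor-bound Janus kinases on STAT proteins, and a complex that holds STAT2 and IRF9 binds the interferon-stimulated response element (ISRE) in promoters. Interferon gamma acts through STAT dimers on another element, the GAS. The induced proteins sense viral RNA, block its translation or tag proteins with ISG15, and several of them, such as IRF7 and the RNA sensors, feed back on the response itself. Epithelial cells keep a low level of many of these genes without infection.

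Promoters of a selection of the members described below are shown first, because the list is defined by a response that these elements mediate. They are RefSeq sequences of the build GRCh38.p14, from 180 bases before to 20 bases after the annotated start, on the gene's own strand. Capitals mark matches to the ISRE core, read on both strands as GAAA, any 2 bases and GAAA again (TTTC, any 2 bases and TTTC on the other strand), and to the GAS motif TTCNNNGAA, which reads the same on both strands.
IFIT1, chr10:89392443-89392642, plus strand: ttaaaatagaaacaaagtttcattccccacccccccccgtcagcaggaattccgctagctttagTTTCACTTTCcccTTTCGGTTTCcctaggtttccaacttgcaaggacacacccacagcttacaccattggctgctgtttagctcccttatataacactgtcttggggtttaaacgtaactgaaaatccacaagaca
IFIT3, upstream start, chr10:89327817-89328016, plus strand: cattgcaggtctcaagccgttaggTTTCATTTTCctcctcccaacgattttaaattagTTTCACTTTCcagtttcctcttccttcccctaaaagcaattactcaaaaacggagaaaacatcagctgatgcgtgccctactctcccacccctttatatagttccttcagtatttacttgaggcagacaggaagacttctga
IFIT3, downstream start, chr10:89332349-89332548, plus strand: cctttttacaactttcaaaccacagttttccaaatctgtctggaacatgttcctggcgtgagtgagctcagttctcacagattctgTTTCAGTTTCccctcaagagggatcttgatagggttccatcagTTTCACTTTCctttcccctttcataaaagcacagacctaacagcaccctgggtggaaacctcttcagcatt
ISG15, chr1:1013317-1013516, plus strand: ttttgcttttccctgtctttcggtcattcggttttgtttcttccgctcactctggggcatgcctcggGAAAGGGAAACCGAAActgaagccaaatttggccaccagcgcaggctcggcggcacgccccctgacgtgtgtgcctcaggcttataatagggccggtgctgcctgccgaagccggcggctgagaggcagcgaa
DDX60, chr4:168318733-168318932, minus strand: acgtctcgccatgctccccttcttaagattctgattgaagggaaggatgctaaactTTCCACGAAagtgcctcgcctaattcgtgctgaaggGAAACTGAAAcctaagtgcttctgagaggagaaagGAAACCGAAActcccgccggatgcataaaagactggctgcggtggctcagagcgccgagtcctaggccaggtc
IFIH1, chr2:162318665-162318864, minus strand: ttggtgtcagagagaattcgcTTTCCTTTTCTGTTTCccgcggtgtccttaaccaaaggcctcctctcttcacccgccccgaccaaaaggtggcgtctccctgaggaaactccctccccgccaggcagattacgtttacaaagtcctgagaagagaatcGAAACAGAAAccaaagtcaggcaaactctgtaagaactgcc
OAS1, chr12:112906782-112906981, plus strand: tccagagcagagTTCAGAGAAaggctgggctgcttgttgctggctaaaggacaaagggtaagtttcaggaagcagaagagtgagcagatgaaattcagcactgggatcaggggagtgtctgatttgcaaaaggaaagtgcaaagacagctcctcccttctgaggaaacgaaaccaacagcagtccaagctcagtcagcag

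The promoters of IFIT1, of both starts of IFIT3, of ISG15, DDX60 and IFIH1 held the ISRE core. In ISG15 the matches overlap in a single run, and in IFIH1 a pair of them overlaps. DDX60 held a GAS match as well, and OAS1 held a GAS match but not these ISRE letters. In windows of 300 bases (250 before and 50 after the start, both strands read), 35 members had an entry in the RefSeq table, with 48 promoters. The ISRE core was in at least 1 promoter of 23 of these 35 members (65.7%), against 1195 of 27305 genes in the whole table (4.38%). It was in no window of DDX58, HERC6, SP110, UBE2L6, IFI35 or STAT2, which are described below but not shown. The GAS motif was in 12 of 35 members (34.3%) and 2560 of 27305 genes (9.38%). A match describes the letters in the window and is not evidence of a bound factor. Entries were not held for IFIT2, MX2, OAS2, OASL, IRF7 and USP18.

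Before the members' values, the response of TGFbeta1 target genes was read in each set. In the first set SMAD7 and ITGB6 had log2 changes of 1.27 and 3.70, and both passed the test described below. Their log2 changes in the second set were −0.16 and 0.02, and neither passed, so the libraries labelled TGFbeta1 there did not show these target genes raised. The labels of the second set were not checked by other values, and every second-set direction below holds only as far as those labels are right. The difference between the sets passed for each of these genes (limma adjusted p = 0.000246 and 1.38e-05). All 10 epithelial markers examined were listed in both sets. In the first set ITGA6 and KRT6A were called higher (1.07 and 0.22) and EPCAM, KRT18 and KRT5 lower (−1.03, −0.75 and −0.64, log2 changes), and in the second limma called 0 of the 10, with 3 at an unadjusted p under 0.05. Of 12 leukocyte markers, CD14, CSF1R and LYZ were listed in the first set, with a sum of 3.88 to 4.85 FPKM in TGFbeta1 libraries and 3.88 to 4.57 FPKM in controls. Opposite calls lie within that sum, with CD14 at 0.581 ± 0.124 FPKM with TGFbeta1 and 2.84 ± 0.29 FPKM in controls and CSF1R at 3.7 ± 0.388 FPKM with TGFbeta1 and 1.34 ± 0.144 FPKM in controls (SD, n = 3 each), log2 changes of −1.28 and 1.01. CD14 reached the mean of 1 FPKM needed for a test only through its controls there, so its call is a description. CD14 and CSF1R, the ones listed in the second set, summed to 8.86 to 9.51 FPKM in TGFbeta1 libraries and 5.39 to 7.23 FPKM in controls. CD14 carried that difference, at 8.69 ± 0.339 FPKM with TGFbeta1 and 5.35 ± 1.08 FPKM in controls, while CSF1R had 0.542 ± 0.0268 FPKM with TGFbeta1 and 0.673 ± 0.0508 FPKM in controls (SD, n = 3 each). Every other leukocyte marker, PTPRC among them, was not listed in either set. Of 7 fibroblast markers, COL1A1 and DCN were listed in both sets and PDGFRA in the second only. COL1A2, COL3A1, PDGFRB and LUM were not listed in either. Those listed summed to 13.7 to 16.9 FPKM in TGFbeta1 libraries and 1.56 to 1.84 FPKM in controls of the first set. They summed to 12.04 to 15.7 FPKM in TGFbeta1 libraries and 28.6 to 32.6 FPKM in controls of the second set, where DCN and PDGFRA were lower and COL1A1, at 0.713 ± 0.0852 FPKM with TGFbeta1 and 0.439 ± 0.0214 FPKM in controls (SD, n = 3 each), was not. The sums over all genes ran from 291801.6 to 318269.5 FPKM per library in the first set and from 338968.0 to 358432.6 FPKM in the second, and the files hold no read counts, so sequencing depth is unknown.

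Values are FPKM, fragments scaled by transcript length and library size. The members sat low in both sets. Averaged over the 6 libraries of the first set, they ranged from 0.0405 FPKM for OAS2 to 21.4 FPKM for PLSCR1, with a median of 1.89 FPKM. The second-set means ranged from 0.366 FPKM for MX1 to 22.8 FPKM for PLSCR1, with a median of 3.40 FPKM. A gene was tested where its mean was at least 1 FPKM, which 25 of the 38 members reached in the first set and 26 of the 32 in the second. IFIT1, IFIT2, IFIT3, MX1, IFI44, IFI44L, OAS2, OASL, BST2, HERC5, USP18, EPSTI1 and CMPK2 were under this filter in the first set, and MX1, IFI44, IFI44L, OASL, BST2 and ISG20 in the second. IFI35 and IRF9 in the first set and HERC6 in the second passed only through their TGFbeta1 libraries, and OAS1 in the first set only through its controls. The summed level of the listed members was 126 to 133 FPKM in TGFbeta1 libraries and 131 to 135 FPKM in controls of the first set. As a share of all FPKM in the library it was 0.0431 to 0.0453% in those TGFbeta1 libraries and 0.0423 to 0.0427% in those controls, with no overlap. It was 171 to 183 FPKM in TGFbeta1 libraries and 151 to 157 FPKM in controls of the second set, with no overlap. In bulk RNA, fewer cells expressing a gene and less RNA per cell cannot be told apart.

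**Figure D1:**
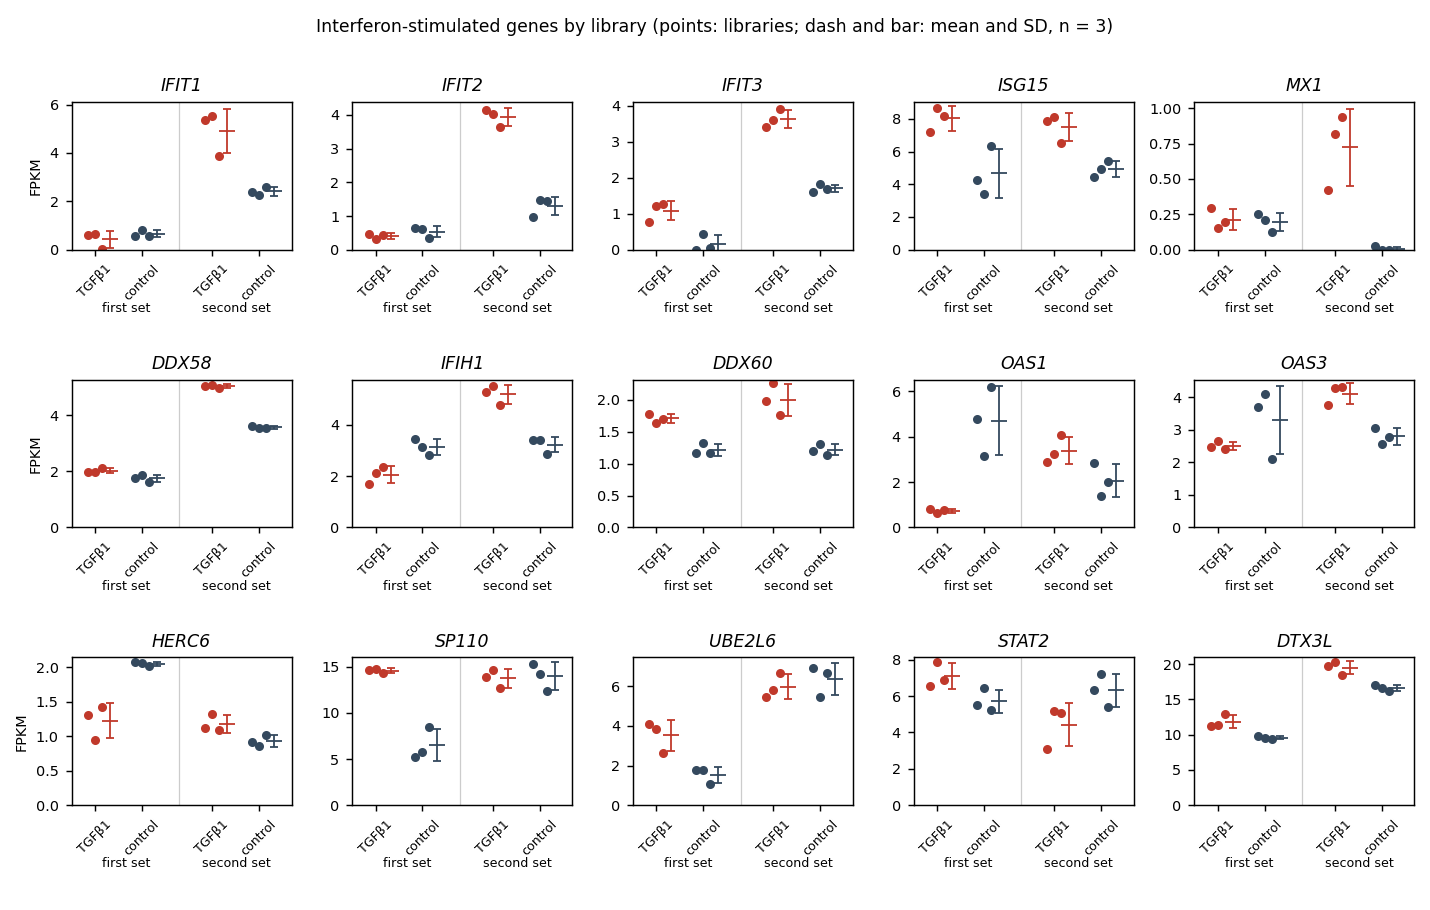
FPKM (y axis, from 0) of 15 interferon-stimulated genes in each library, with TGFβ1 libraries in red and controls in blue, the first set left and the second set right of the grey line. Points are libraries, dashes and bars the mean and SD of 3 libraries. The 3 TGFβ1 libraries lie above the 3 controls in both sets for IFIT3, ISG15, DDX58, DDX60 and DTX3L, whereas IFIH1, OAS1 and HERC6 lie below the controls in the first set and above them in the second.

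In the first set 7 of 25 tested members passed, 4 higher and 3 lower, a count not far from the 20.9% of all tested genes that passed. SP110, IFI6, UBE2L6 and IFI35 were higher in the TGFbeta1 libraries, with log2 changes between 0.61 and 1.08, and OAS1, PLSCR1 and HERC6 were lower, with log2 changes of −1.68, −0.49 and −0.46. The 7 include IFI35 and OAS1, each of which reached the filter only through the group where it was higher. The test was limma at an adjusted p under 0.05, on log2(FPKM + 1) values fitted over all 10454 tested genes, of which 2186 passed. Higher calls were 4 members beside 941 genes (9.0%), and lower calls 3 members beside 1245 genes (11.9%). The median log2 change was 0.20 over the tested members and −0.05 over all tested genes. Without the filter it was 0.04 over all 38 listed members and −0.04 over 13407 genes. The fibroblast markers COL1A1 and DCN were higher in these TGFbeta1 libraries, with log2 changes of 2.65 and 1.21, and 5 epithelial markers were called as well. Their part in the members' values was not tested. DCN had 2.78 ± 0.985 FPKM with TGFbeta1 and 0.594 ± 0.0988 FPKM in controls (SD, n = 3 each). It passed the filter only through its TGFbeta1 libraries, so its call is a description. The pseudocount understates the change of genes at low FPKM. The split between directions depends on how libraries are scaled: with median-of-ratios scaling it was 6 higher and 1 lower among members and 1048 and 1010 among all genes, with equal library sums 8 and 1 beside 1164 and 855, and with quantile normalisation 6 and 2 beside 1037 and 973. The TGFbeta1 libraries lay wholly above the controls for 11 tested members (18.2% of all tested genes did so) and wholly below them for 5 (25.1%).

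In the second set a pair of IFIT genes, which encode proteins that bind viral RNA, was higher in the TGFbeta1 libraries. IFIT2 and IFIT3 passed, with log2 changes of 1.11 and 0.78, and 0 members passed as lower (16 genes, 0.151%). These were 2 of 26 tested members, beside 34 of 10579 tested genes (0.321%), of which 18 were higher (0.17%). At an unadjusted p under 0.05 there were 12 higher members, beside 612 genes (5.79%), and 0 lower members, beside 570 genes (5.39%). The 12 were IFIT1, IFIT2, IFIT3, DDX58, IFIH1, DDX60, ISG15, OAS1, OAS3, IRF1, PARP14 and DTX3L. The TGFbeta1 libraries lay wholly above the controls for 13 of the 26 tested members (9.71% of all tested genes) and wholly below them for STAT2 (9.62%). The median log2 change was 0.20 over the tested members and 0.00 over all tested genes. With only the transcripts that both tables list it was 0.10 over the members. Neither IFIT call held when any 1 library was left out, with adjusted p from 0.0996 to 0.151 for IFIT2 and from 0.110 to 0.190 for IFIT3. Neither held with equal library sums, nor with a replicate block, which is a term for library number. The IFIT2 call was also lost at a pseudocount of 0.1. Of the markers above, CD14 and COL1A1 were higher in these TGFbeta1 libraries and CSF1R, DCN and PDGFRA lower. Of these only DCN passed, and COL1A1, CSF1R and PDGFRA were under the filter. TGFbeta1 libraries also lay wholly above controls for the epithelial markers EPCAM, KRT18, ITGA6 and TP63, none of which passed. The groups of the other epithelial markers overlapped. The part of all these markers in the members' values was not tested.

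**Figure D2:**
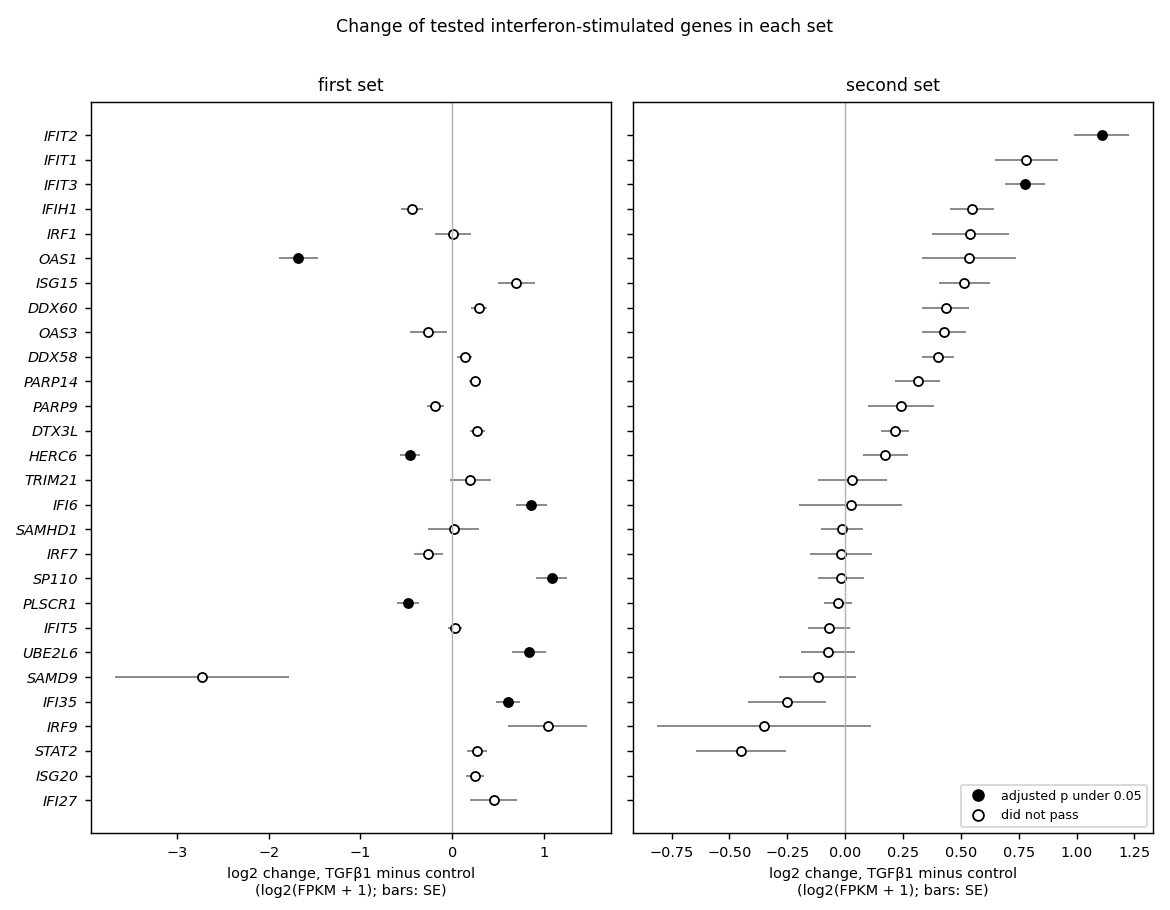
Log2 change (x axis, TGFβ1 minus control on log2(FPKM + 1)) of each tested member in the first set (left) and the second set (right), with bars of 1 SE; the x axes differ in range. Filled points passed at an adjusted p under 0.05. The second-set points of IFIT2, IFIT1 and IFIT3 lie farthest to the right, and in the first set SAMD9 and OAS1 lie farthest to the left.

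The sets were set against each other directly, with a term for the change in the second set minus that in the first, over all 12 libraries. Of 27 members tested, 8 passed, beside 1436 of 10571 genes (13.6%). The change was more positive in the second set for OAS1, IFIT2, IFIT1, IFIH1 and HERC6 (797 genes, 7.54%), and more negative there for SP110, UBE2L6 and IFI35 (639 genes, 6.04%). The IFIT1 difference was lost without TGFbeta1 4 or 5 or control 2, 4 or 5 (adjusted p up to 0.0639) and at a pseudocount of 0.1. That of IFI35 was lost without TGFbeta1 2 or 3 or control 2, 4, 5 or 6 (up to 0.0594), and that of UBE2L6 without TGFbeta1 1, 2, 4 or 5 or control 4 or 6 (up to 0.0661). With the replicate block the differences of IFIT1, IFI35 and HERC6 were lost. Among the 23 members tested in both sets, 11 had the same sign in each (47.8%), as had 4860 of 10006 genes (48.6%). Of these 23, TGFbeta1 libraries lay above all controls in both sets for DDX58, DDX60, DTX3L, ISG15 and PARP14 (1.94% of the 10006 genes). They lay below in the first set and above in the second for HERC6, IFIH1 and OAS1 (2.86%), and the other way round for STAT2 (2.27%). The level of a gene was not compared between sets, because the tables were normalised separately.

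The cytosolic sensors of viral RNA come first by role. DDX58 encodes RIG-I, which binds short double-stranded RNA with a triphosphate end. It had 5.05, 5.08 and 4.97 FPKM in the TGFbeta1 libraries, against 3.62, 3.55 and 3.53 FPKM in the controls of the second set. These groups were far apart relative to their spread, with means of 5.03 ± 0.0611 FPKM with TGFbeta1 and 3.57 ± 0.0448 FPKM in controls (SD, n = 3 each). The log2 change was 0.40 ± 0.07 (SE; limma adjusted p = 0.124), which did not pass. DDX58 had 1.97, 1.98 and 2.12 FPKM in the TGFbeta1 libraries, against 1.78, 1.85 and 1.63 FPKM in the controls of the first set. The groups again did not overlap, by a smaller distance, and the log2 change was 0.14 ± 0.08 (SE, adjusted p = 0.315).

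IFIH1 encodes MDA5, the sensor of long double-stranded RNA. It had 5.27, 5.51 and 4.76 FPKM in the TGFbeta1 libraries, against 3.41, 3.4 and 2.87 FPKM in the controls of the second set. All TGFbeta1 libraries were high there, and the log2 change was 0.55 ± 0.10 (SE; limma adjusted p = 0.128). The order was the opposite in the first set, with 1.69, 2.14 and 2.34 FPKM in the TGFbeta1 libraries, against 3.43, 3.14 and 2.82 FPKM in the controls. The log2 change there was −0.44 ± 0.12 (SE, adjusted p = 0.0528). Neither change passed alone, but their difference did, at 0.99 ± 0.15 (SE; limma adjusted p = 0.00203), and it held in every alternative fit of genes that tested it.

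DDX60 is a helicase reported to assist RIG-I. It had 1.78, 1.64 and 1.71 FPKM in the TGFbeta1 libraries, against 1.17, 1.33 and 1.16 FPKM in the controls of the first set. In the second it had 1.98, 2.26 and 1.77 FPKM in the TGFbeta1 libraries, against 1.2, 1.31 and 1.14 FPKM in the controls. All 6 TGFbeta1 libraries stood above the controls of their set, with log2 changes of 0.29 ± 0.09 (SE, adjusted p = 0.0682) and 0.43 ± 0.10 (SE, adjusted p = 0.233), neither of which passed.

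The transcription factors of the response did not move as a block. STAT2, a STAT protein specific to interferon signalling, had 6.55, 7.89 and 6.87 FPKM in the TGFbeta1 libraries, against 5.52, 6.44 and 5.21 FPKM in the controls of the first set. Its second-set values were 3.07, 5.17 and 5.06 FPKM in the TGFbeta1 libraries, against 6.34, 7.23 and 5.41 FPKM in the controls. The TGFbeta1 libraries lay above the controls in the first set and below them in the second, with log2 changes of 0.27 ± 0.11 (SE, adjusted p = 0.145) and −0.45 ± 0.19 (SE, adjusted p = 0.473). IRF9, the DNA-binding part of the same complex, had 1.36, 3.55 and 3.68 FPKM in the TGFbeta1 libraries, against 2.08, 0.432 and 0.311 FPKM in the controls of the first set. Second-set values of IRF9 were 0.883, 0.147 and 3.12 FPKM in the TGFbeta1 libraries, against 1.3, 1.54 and 2.16 FPKM in the controls. Its groups overlapped in both sets, and its log2 changes were 1.04 ± 0.43 (SE, adjusted p = 0.152) and −0.35 ± 0.46 (SE, adjusted p = 0.824). IRF7, which amplifies type I interferon production, had 1.72, 2.0 and 1.12 FPKM in the TGFbeta1 libraries, against 2.42, 2.07 and 1.84 FPKM in the controls of the first set. Second-set values of IRF7 were 1.36, 1.63 and 1.92 FPKM in the TGFbeta1 libraries, against 1.63, 1.38 and 1.99 FPKM in the controls. Its log2 changes were −0.26 ± 0.16 (SE, adjusted p = 0.303) and −0.02 ± 0.13 (SE, adjusted p = 0.977), with overlapping groups in each set.

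IRF1, a factor induced by both interferon types, had 9.99, 6.52 and 7.42 FPKM in the TGFbeta1 libraries, against 5.91, 4.59 and 4.85 FPKM in the controls of the second set. The groups did not overlap, and the log2 change was 0.54 ± 0.17 (SE; limma adjusted p = 0.332). The highest value, in TGFbeta1 library 4, came from the transcript IRF1-202, at 7.73 FPKM there and listed at 0 in the other 5 libraries. Without transcripts that only 1 of the tables lists, the log2 change of IRF1 was −0.24. The first-set groups of IRF1 overlapped, and its log2 change there was 0.01 ± 0.19 (SE, adjusted p = 0.978).

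Proteins of the IFIT genes hold back the translation of viral RNA. They lie in a cluster on chromosome 10, at chr10:91061803-91068676 for IFIT2, chr10:91087651-91100728 for IFIT3, chr10:91152303-91163745 for IFIT1 and chr10:91174343-91180758 for IFIT5, on the plus strand in the files' build hg19. IFIT2 had 4.13, 4.04 and 3.64 FPKM in the TGFbeta1 libraries, against 0.982, 1.46 and 1.45 FPKM in the controls of the second set. Every TGFbeta1 value was more than the highest control, and the log2 change was 1.11 ± 0.12 (SE; limma adjusted p = 0.045). IFIT2 was under the filter in the first set, at 0.453, 0.31 and 0.445 FPKM in the TGFbeta1 libraries, against 0.644, 0.608 and 0.342 FPKM in the controls, and the groups overlapped. The change in the second set exceeded that in the first by 1.23 ± 0.17 (SE; limma adjusted p = 0.000832). IFIT2 entered that fit only through the second set, with means of 2.62 FPKM there and 0.467 FPKM in the first, in tables normalised separately, and at the lower level log2(FPKM + 1) understates a change, so the size of the difference depends on the level too.

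IFIT3 had 3.42, 3.62 and 3.91 FPKM in the TGFbeta1 libraries, against 1.62, 1.82 and 1.69 FPKM in the controls of the second set, a log2 change of 0.78 ± 0.09 (SE; limma adjusted p = 0.0477). The groups were apart, as they were in the first set, where IFIT3 had 0.773, 1.21 and 1.27 FPKM in the TGFbeta1 libraries, against 0, 0.434 and 0.0608 FPKM in the controls. The first-set values were under the filter, 1 control was listed at 0, and the gene was not tested there. The difference between the sets was −0.07 ± 0.21 (SE, adjusted p = 0.869). IFIT3 carries both upstream and downstream starts shown above, each with a pair of ISRE core matches.

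IFIT1 had 5.36, 5.51 and 3.86 FPKM in the TGFbeta1 libraries, against 2.39, 2.24 and 2.59 FPKM in the controls of the second set. The groups did not overlap, and the log2 change of 0.78 ± 0.14 (SE; limma adjusted p = 0.128) did not pass. It stood under the filter in the first set, at 0.617, 0.636 and 0.0203 FPKM in the TGFbeta1 libraries, against 0.58, 0.835 and 0.565 FPKM in the controls, with overlapping groups and 1 TGFbeta1 library near 0. The difference between the sets was 1.03 ± 0.26 (SE; limma adjusted p = 0.0272). The same limit holds for it, with means of 3.66 FPKM in the second set and 0.542 FPKM in the first, and the call was lost at a pseudocount of 0.1. IFIT5, the last gene of the cluster, had log2 changes of 0.03 ± 0.08 (SE, adjusted p = 0.804) and −0.07 ± 0.09 (SE, adjusted p = 0.821), with overlapping groups in both sets. IFIT paralogs are alike in sequence, and how reads were shared among them was not stated by the sources.

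The oligoadenylate synthetases make the second messenger that activates RNase L. OAS1, at chr12:113344582-113357708 in hg19, had 0.797, 0.643 and 0.774 FPKM in the TGFbeta1 libraries, against 4.77, 3.13 and 6.19 FPKM in the controls of the first set. All TGFbeta1 libraries were low, with means of 0.738 ± 0.0827 FPKM with TGFbeta1 and 4.7 ± 1.53 FPKM in controls (SD, n = 3 each). The log2 change was −1.68 ± 0.21 (SE; limma adjusted p = 0.00455), and the call held in the alternatives that tested it. OAS1 passed the filter there only through its controls, so the call is given as a description of these libraries. The second-set values of OAS1 were 2.87, 3.24 and 4.05 FPKM in the TGFbeta1 libraries, against 2.83, 1.36 and 2.01 FPKM in the controls. There the TGFbeta1 libraries lay just above the controls, and the log2 change was 0.53 ± 0.20 (SE, adjusted p = 0.418). The difference between the sets, 2.21 ± 0.31 (SE; limma adjusted p = 0.000968), was the largest in size among the 8 members that passed.

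OAS3, its neighbour at chr12:113376157-113411054 in hg19, had 2.49, 2.66 and 2.4 FPKM in the TGFbeta1 libraries, against 3.72, 4.11 and 2.11 FPKM in the controls of the first set, with overlapping groups and a log2 change of −0.26 ± 0.20 (SE, adjusted p = 0.409). Its second-set values were 3.75, 4.29 and 4.31 FPKM in the TGFbeta1 libraries, against 3.07, 2.56 and 2.79 FPKM in the controls. All TGFbeta1 libraries were higher there, and the log2 change was 0.43 ± 0.09 (SE, adjusted p = 0.203). OAS2 averaged 0.0405 FPKM in the first set and OASL was under the filter in both sets.

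ISG15 is a ubiquitin-like protein that is attached to newly made proteins. It had 7.21, 8.66 and 8.2 FPKM in the TGFbeta1 libraries, against 4.26, 3.43 and 6.34 FPKM in the controls of the first set. Second-set values of ISG15 were 7.89, 8.09 and 6.5 FPKM in the TGFbeta1 libraries, against 4.47, 4.92 and 5.41 FPKM in the controls. All 6 TGFbeta1 libraries stood above the controls of their set. The log2 changes were 0.70 ± 0.20 (SE, adjusted p = 0.0615) and 0.52 ± 0.11 (SE, adjusted p = 0.192), and neither passed.

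UBE2L6 is the conjugating enzyme for ISG15. It had 4.08, 3.85 and 2.63 FPKM in the TGFbeta1 libraries, against 1.76, 1.77 and 1.05 FPKM in the controls of the first set, where every TGFbeta1 library was higher and the log2 change was 0.84 ± 0.19 (SE; limma adjusted p = 0.032). The call was lost with any 1 library but TGFbeta1 3 left out, with adjusted p up to 0.10. UBE2L6 had 5.43, 5.82 and 6.68 FPKM in the TGFbeta1 libraries, against 6.94, 5.45 and 6.67 FPKM in the controls of the second set, with overlapping groups. The difference between the sets was −0.91 ± 0.23 (SE; limma adjusted p = 0.0276). USP18, which removes ISG15, was listed in the first set only, at 0.57, 0.696 and 0.744 FPKM in the TGFbeta1 libraries, against 0.70, 0.702 and 0.918 FPKM in the controls, under the filter and with overlapping groups.

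HERC6 is the ligase that attaches ISG15 in mouse. It had 1.31, 0.944 and 1.43 FPKM in the TGFbeta1 libraries, against 2.08, 2.06 and 2.02 FPKM in the controls of the first set. The controls were within a narrow range, every TGFbeta1 library was below them, and the log2 change was −0.46 ± 0.11 (SE; limma adjusted p = 0.0403). That call was lost without any 1 of the 6 libraries, with adjusted p from 0.0549 to 0.108. It was also lost with median-of-ratios or equal-sum scaling, at a pseudocount of 0.1 and with the transcripts that both tables list. The replicate block removed the call too. HERC6 had 1.12, 1.33 and 1.09 FPKM in the TGFbeta1 libraries, against 0.922, 0.852 and 1.02 FPKM in the controls of the second set, with TGFbeta1 libraries above controls and a log2 change of 0.17 ± 0.10 (SE, adjusted p = 0.577). The difference between the sets was 0.63 ± 0.14 (SE; limma adjusted p = 0.0138), and it was lost with the replicate block.

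PARP9 and DTX3L form a complex that modifies histones and acts in interferon signalling, and PARP14 is a related ADP-ribosyltransferase. DTX3L had 11.2, 11.4 and 12.9 FPKM in the TGFbeta1 libraries, against 9.83, 9.49 and 9.45 FPKM in the controls of the first set. The second-set values of DTX3L were 19.8, 20.2 and 18.5 FPKM in the TGFbeta1 libraries, against 16.99, 16.7 and 16.2 FPKM in the controls. PARP14 had 7.66, 7.38 and 7.22 FPKM in the TGFbeta1 libraries, against 6.12, 6.1 and 6.05 FPKM in the controls of the first set. Those of PARP14 in the second set were 8.81, 9.42 and 9.42 FPKM in the TGFbeta1 libraries, against 8.14, 7.25 and 6.35 FPKM in the controls. For both genes the TGFbeta1 libraries lay above the controls in each set. Log2 changes of DTX3L were 0.27 ± 0.08 (SE, adjusted p = 0.065) and 0.22 ± 0.06 (SE, adjusted p = 0.297), and those of PARP14 0.25 ± 0.07 (SE, adjusted p = 0.0532) and 0.31 ± 0.10 (SE, adjusted p = 0.335), so none passed. PARP9 overlaps the start of DTX3L on the other strand, with hg19 ranges of chr3:122246771-122283424 and chr3:122283085-122294050. Its groups overlapped in both sets, with log2 changes of −0.19 ± 0.09 (SE, adjusted p = 0.223) and 0.24 ± 0.14 (SE, adjusted p = 0.585). No source states whether strand was counted, so reads of the shared bases cannot be told apart.

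MX1, a dynamin-like GTPase that blocks influenza virus, had 0.419, 0.816 and 0.937 FPKM in the TGFbeta1 libraries, against 0.0247, 0 and 0 FPKM in the controls of the second set. TGFbeta1 libraries were the only ones there above 0.1 FPKM, and the gene was under the filter, so it was not tested and no fold is given against controls listed at or near 0. MX1 had 0.292, 0.15 and 0.196 FPKM in the TGFbeta1 libraries, against 0.249, 0.213 and 0.128 FPKM in the controls of the first set, with overlapping groups. The only MX1 transcript listed was MX1-001 in the first set and a different one, MX1-202, in the second. The MX1 values of the sets thus belong to different transcripts. OASL, also under the filter, had TGFbeta1 libraries above controls in the second set, at means of 0.604 ± 0.257 FPKM with TGFbeta1 and 0.155 ± 0.0466 FPKM in controls (SD, n = 3 each). The lowest transcript mean listed in that set was 0.25 FPKM, which the MX1 and OASL controls alone did not reach. Both genes were thus listed there only through their TGFbeta1 libraries, and these separations are a description. IFI44 had them above in the second set, at 1.12 ± 0.446 FPKM with TGFbeta1 and 0.411 ± 0.118 FPKM in controls, and in the first, at 1.11 ± 0.247 FPKM with TGFbeta1 and 0.522 ± 0.0476 FPKM in controls.

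SP110, a component of nuclear bodies, had 14.6, 14.7 and 14.3 FPKM in the TGFbeta1 libraries, against 5.19, 5.79 and 8.45 FPKM in the controls of the first set. The groups were wide apart, and the log2 change was 1.08 ± 0.17 (SE; limma adjusted p = 0.00919), a call that held in every alternative fit of genes. Tested per transcript, none of its transcripts passed. SP110 had 13.8, 14.7 and 12.7 FPKM in the TGFbeta1 libraries, against 15.3, 14.2 and 12.3 FPKM in the controls of the second set, with overlapping groups, and the difference between the sets was −1.10 ± 0.21 (SE; limma adjusted p = 0.00568). IFI6, a small membrane protein that restricts flaviviruses, had 7.81, 8.01 and 6.88 FPKM in the TGFbeta1 libraries, against 3.61, 4.82 and 2.87 FPKM in the controls of the first set. All TGFbeta1 libraries were higher, the log2 change was 0.86 ± 0.17 (SE; limma adjusted p = 0.019), and the call was lost without TGFbeta1 1, TGFbeta1 2 or control 1 (adjusted p up to 0.0666).

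IFI6 had 6.08, 10.7 and 10.4 FPKM in the TGFbeta1 libraries, against 9.42, 7.25 and 9.38 FPKM in the controls of the second set. Its groups overlapped, and the difference between the sets, −0.84 ± 0.30 (SE, adjusted p = 0.0937), did not pass. IFI35, a partner of the interferon-induced protein NMI, had 1.33, 1.44 and 1.49 FPKM in the TGFbeta1 libraries, against 0.761, 0.341 and 0.686 FPKM in the controls of the first set, a log2 change of 0.61 ± 0.13 (SE; limma adjusted p = 0.0285). The groups did not overlap, and the controls were all under 1 FPKM. IFI35 passed the filter only through its TGFbeta1 libraries and could be tested in only 3 of the 6 fits that left out 1 library. Its call was lost with the replicate block, so this call too is a description. Its second-set groups overlapped, at 1.5 ± 0.501 FPKM with TGFbeta1 and 1.93 ± 0.107 FPKM in controls (SD, n = 3 each), and the difference between the sets was −0.86 ± 0.22 (SE, adjusted p = 0.0262).

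PLSCR1, a phospholipid scramblase that is also antiviral, had the highest mean of the members in both sets. It had 15.02, 20.1 and 18.1 FPKM in the TGFbeta1 libraries, against 23.5, 26.7 and 25.1 FPKM in the controls of the first set. Every TGFbeta1 library was lower, and the log2 change was −0.49 ± 0.12 (SE; limma adjusted p = 0.0416). The call was lost under each of the 3 other scalings, and with any 1 library but TGFbeta1 2 left out (adjusted p up to 0.115). PLSCR1 had 23.1, 22.5 and 22.1 FPKM in the TGFbeta1 libraries, against 21.9, 24.00 and 23.3 FPKM in the controls of the second set, with overlapping groups and a log2 change of −0.03 ± 0.06 (SE, adjusted p = 0.886).

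**Figure D3:**
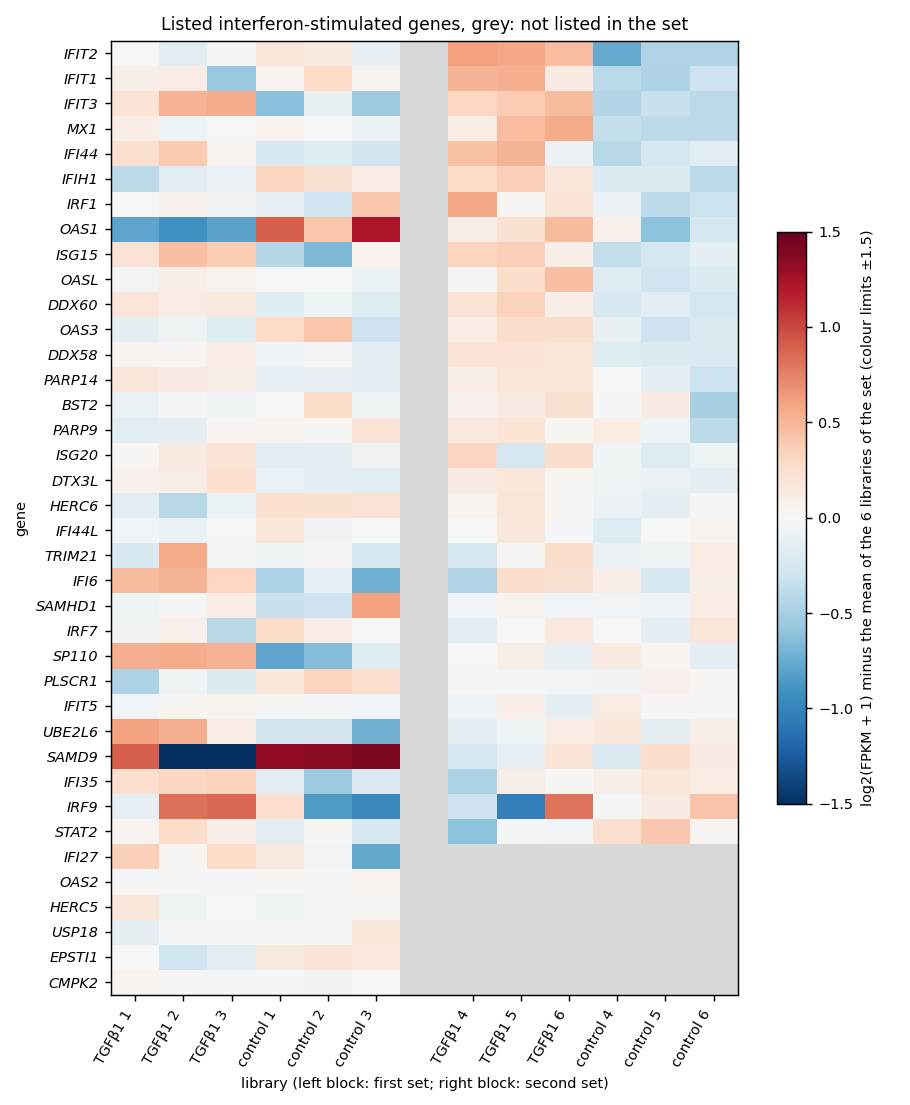
Each listed member (rows) in each library (columns, TGFβ1 left of control within each set), coloured by log2(FPKM + 1) minus the mean of the set's 6 libraries; red is higher, blue lower, grey not listed. Rows are ordered by the second-set TGFβ1 mean on this scale. The red TGFβ1 libraries and blue controls in the upper rows of that set, from IFIT2 downward, follow from this order. The same rows of the first set, which did not set the order, are mixed. SAMD9 passes the colour limits in the first set.

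Among the remaining members, TRIM21, SAMHD1 and BST2 had overlapping groups in both sets. Their log2 changes were 0.20 and 0.03 for TRIM21, a cytosolic antibody receptor, and 0.01 and −0.01 for SAMHD1, which depletes nucleotides needed for reverse transcription. BST2, which tethers budding virions, was under the filter in both. The log2 change of ISG20, an exonuclease, was 0.25 ± 0.09 (SE, adjusted p = 0.123) in the first set, where TGFbeta1 libraries lay above controls. For IFI27 it was 0.45 ± 0.26 (SE, adjusted p = 0.269) there, and the groups overlapped. EPSTI1, listed in the first set only and under the filter, had TGFbeta1 libraries below controls, at means of 0.123 ± 0.121 FPKM with TGFbeta1 and 0.391 ± 0.0291 FPKM in controls (SD, n = 3 each). HERC5, which attaches ISG15 in human cells, CMPK2 and IFI44L stayed under 1 FPKM in every library in which they were listed, with overlapping groups.

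**Figure D4:**
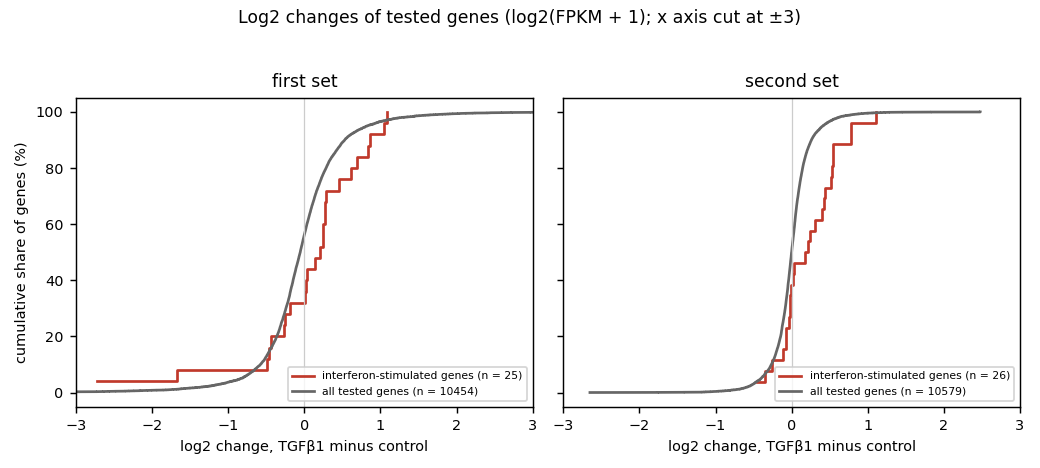
Cumulative share of tested genes (y axis, percent) by log2 change (x axis, TGFβ1 minus control) in the first set (left) and the second set (right), for the tested members (red, 25 and 26 genes) and all tested genes (grey, 10454 and 10579 genes). The red curve lies right of the grey over most of its range in both panels, with medians of 0.20 for the members in each set and −0.05 and 0.00 for all genes. Members under the filter are not drawn, and with them the first-set median is 0.04.

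The rest of the pathway was read from 6 lists outside the 41 symbols. In the first set 20 of 71 tested genes passed, 14 higher and 6 lower, beside 20.9% of all tested genes, 9.0% higher and 11.9% lower. With equal library sums 17 were higher and 4 lower. In the second set 0 of 75 passed limma, beside 0.321% of all tested genes, and at an unadjusted p under 0.05 there were 8 higher and 2 lower, beside 5.79% and 5.39%. None of 9 interferon ligand genes was tested in the first set, and IFNB1 was not listed in either. IFNK was under the filter in the first set, and IFNE, an epithelial interferon, had 1.9 ± 0.164 FPKM with TGFbeta1 and 2.19 ± 0.255 FPKM in controls (SD, n = 3 each) in the second. Receptor subunits IFNAR2 and IFNLR1 rose in the first set, by log2 changes of 0.60 ± 0.12 (SE, adjusted p = 0.0193) and 0.70 ± 0.18 (SE, adjusted p = 0.0453), and they were the only 2 of 9 receptors and Janus kinases to pass. IFNAR1, JAK1 and TYK2 did not pass, at −0.16, 0.29 and 0.20 in the first set and 0.04, −0.02 and −0.10 in the second.

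Of 14 tested genes of nucleic acid sensing, TMEM173, which encodes STING, rose in the first set, by 0.57 ± 0.10 (SE, adjusted p = 0.0153). Among 9 tested genes that restrain interferon signalling, SOCS3, PTPN1 and PIAS3 rose in the first set, by 1.44, 0.45 and 0.51, and PTPN2 fell, by a log2 change of −0.39 (limma adjusted p = 0.000904, 0.00871, 0.0485 and 0.0151). SOCS3 had 2.98 ± 0.413 FPKM with TGFbeta1 and 0.464 ± 0.0442 FPKM in controls (SD, n = 3 each). It passed the filter only through its TGFbeta1 libraries, so its call is a description.

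Of 35 tested interferon-stimulated genes outside the 41, 7 rose and 5 fell in the first set, beside 9.0% and 11.9% of all tested genes, with a median log2 change of 0.03. TNFSF10, the death ligand TRAIL, rose by 1.22 ± 0.15 (SE, adjusted p = 0.00427), HELZ2 by 0.80 ± 0.12 (SE, adjusted p = 0.00776) and RNF213, a giant ubiquitin ligase, by 0.67 ± 0.08 (SE, adjusted p = 0.00344). GMPR, an enzyme of purine salvage, fell by a log2 change of −1.18 ± 0.19 (SE, adjusted p = 0.011). GMPR had 0.313 ± 0.29 FPKM with TGFbeta1 and 1.95 ± 0.363 FPKM in controls (SD, n = 3 each). It passed the filter only through its controls, so its call is a description. None of 36 passed in the second set, and their median log2 change was 0.04, beside 0.20 over the tested members and 0.00 over all genes.

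Values per gene hide shifts between transcripts of the same gene, which the deposited tables list one by one. SAMD9, named after its values were seen, encodes a restriction factor of poxviruses. It had 14.7, 0.592 and 0.39 FPKM in the TGFbeta1 libraries, against 20.1, 20.5 and 21.2 FPKM in the controls of the first set. TGFbeta1 libraries 2 and 3 were near 0 and library 1 was not, and the log2 change of −2.73 ± 0.95 (SE, adjusted p = 0.103) did not pass. In control libraries 1 and 3 most of its value was on SAMD9-201, at 17.2 and 20.6 FPKM, and in control 2 on SAMD9-001, at 20.03 FPKM. These transcripts span nearly the same bases. SP110 in TGFbeta1 library 2 was likewise spread over SP110-004 and SP110-001, at 7.37 and 4.62 FPKM, where libraries 1 and 3 had 13.97 and 11.3 FPKM on SP110-001.

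**Figure D5:**
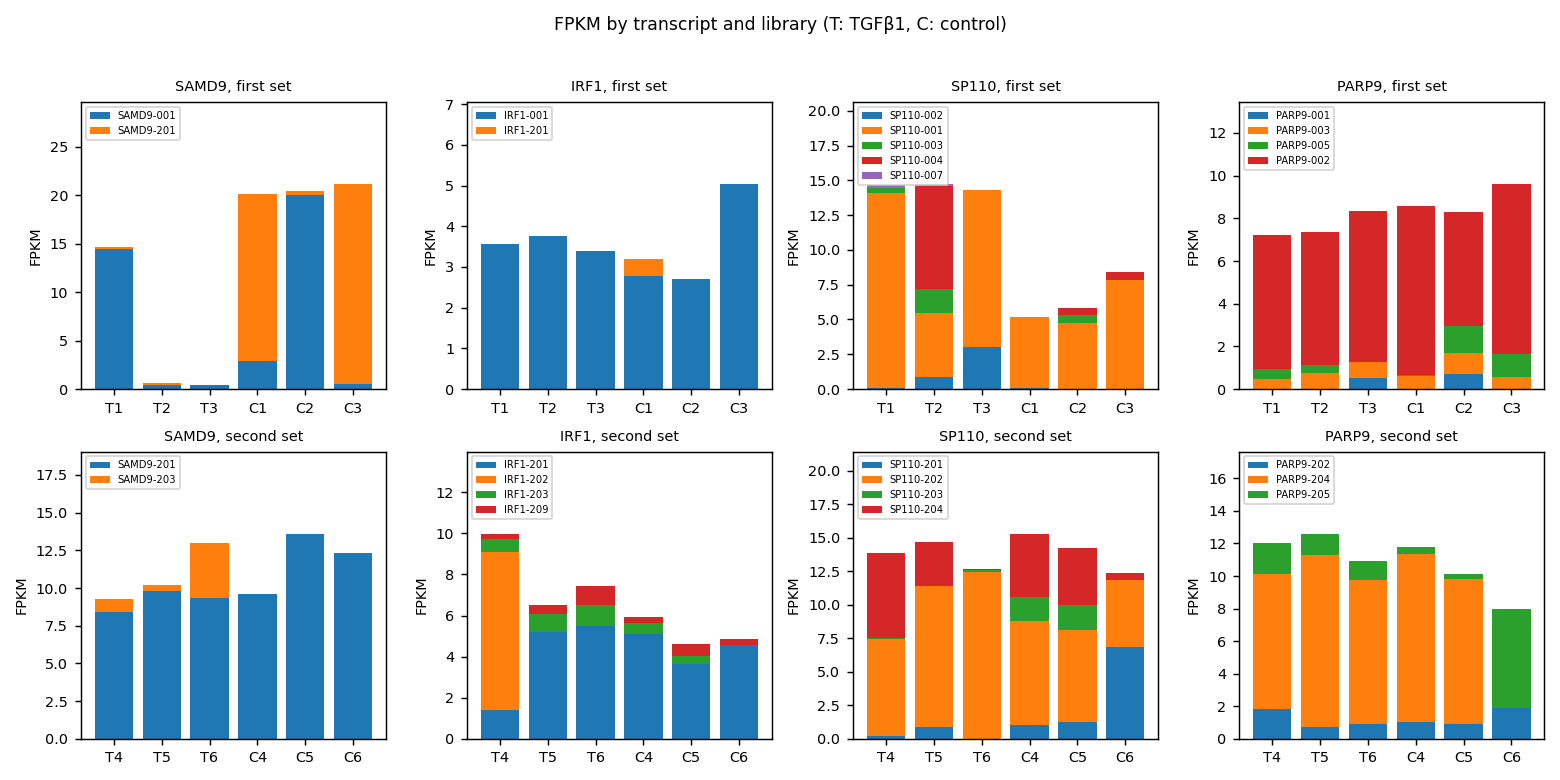
FPKM (y axis, from 0) of SAMD9, IRF1, SP110 and PARP9 by transcript (colours, named as in each table) in each library, with TGFβ1 libraries (T) left of controls (C), the first set above and the second below. The bars of SAMD9 change colour between control libraries of the first set while their height stays between 20.1 and 21.2 FPKM, and IRF1-202 appears in TGFβ1 library 4 only.

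Tested transcript by transcript, an alternative added after the data were seen, 1 of 31 member transcripts passed in the first set, beside 1003 of 18113 transcripts (5.54%). It was OAS1-001, with a log2 change of −1.66 (limma adjusted p = 0.0152). Of 34 member transcripts 0 passed in the second set, beside 45 of 20392 (0.221%). In the authors' deposited table for the second set, 28 of 29204 transcripts had a q-value under 0.05 (0.0959%), none of them among 56 member transcripts. The lowest member q-value in the authors' deposited table was 0.181, for the IFIT2 transcript, and 13 member transcripts had an unadjusted p under 0.05 there.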

How the data were processed

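RNA of 12 MCF-12A libraries was sequenced. The submitters' processing notes list StringTie 1.2.3, HISAT2 2.0.4, cutadapt, FastQC and the hg19 build, without roles. Settings, strand handling and annotation release were not given in the sources used here. As deposited, the values are the authors' FPKM per protein-coding transcript in 2 tables, one per set, with 44112 and 29204 transcripts and lowest transcript means of 0.025 and 0.25 FPKM, so faint transcripts are kept in the first only. The unit of the first table was taken from its values and those notes. The second also carries the authors' deposited comparison, with log2 group means and log2 changes, fold ratios, p-values and q-values per transcript, made by a test that is not stated.

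FPKM was summed per symbol in Python 3.11.15, after 196 symbols of the first table were changed to those the second gives the same transcripts. Genes with a mean of at least 1 FPKM were tested on log2(FPKM + 1) with limma 3.58.1 in R 4.3.3, with a variance trend and Benjamini-Hochberg adjustment over all tested genes, separately in each set and as a set-by-agent term over 12 libraries. The procedure was tested on simulated data. The changes planted there were larger, and the levels of the changed genes higher, than those of many members, so the simulation does not cover these members. With 3 libraries against 3, an exact permutation test of 1 gene cannot go below p = 0.1. Members and lists were chosen with earlier results of these data known. Members were named where they passed in any fit, were among the 10 smallest p in a set, or stood for their role (IRF1, IRF7, IRF9, STAT2, DDX58, IFIH1, ISG15, MX1, OAS1, IFIT1, IFIT3 and USP18). Of each pathway list the 4 smallest p among passing genes were named, with JAK1, TYK2, IFNAR1, IFNAR2 and IFNB1, and some genes of these lists are not reported here. Alternatives tried were a pseudocount of 0.1, a minimum of 5 FPKM or none, 3 other scalings, shared transcripts, no variance trend, a replicate block, leaving out each library, and a test per transcript. Promoters are RefSeq GRCh38.p14; loci are hg19, as in the files.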

Additional observations from a re-analysis of the deposited data

Results flagged for a closer look

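For 8 of 27 tested members the log2 change in the second set differed from that in the first. The rule was the set-by-agent term of limma at an adjusted p under 0.05, which 1436 of 10571 genes passed (13.6%). The change was more positive in the second set by 2.21 for OAS1, by 1.23 for IFIT2, by 1.03 for IFIT1, by 0.99 for IFIH1 and by 0.63 for HERC6. IFIT1 and IFIT2 reached the filter of that fit only through the second set. The change in the second set minus that in the first was −1.10 for SP110, −0.91 for UBE2L6 and −0.86 for IFI35. The differences of IFIT1, IFI35 and UBE2L6 were lost in several of the fits that left out 1 library. Those of IFIT1, IFI35 and HERC6 were lost with the replicate block. The groups of 3 libraries were not searched for single libraries that stand apart.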

How the results depend on the processing

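The cause of the movements below was not tested. In the first set the main counts of calls were 2186 of all genes, 7 members and 20 pathway genes. A minimum of 5 FPKM gave 3 of 9 tested members and 13 of 53 tested pathway genes, beside 1584 of 7288 genes. The main fit had tested 25 members and 71 pathway genes. The test per transcript gave 1003 of 18113 transcripts and 1 of 31 member transcripts. Leaving out 1 library gave 1354 to 2030 genes, 3 to 6 members and 9 to 20 pathway genes. In the second set, with 34 genes and 2 members called, equal library sums left 17 genes and 0 members, and no variance trend left 20 genes. A pseudocount of 0.1 left 1 member, and a minimum of 5 FPKM and the test per transcript left 0. At that minimum 12 members were tested, against 26 in the main fit. IFIT2 and IFIT3, with means of 2.62 and 2.68 FPKM, were then not tested. Leaving out 1 library gave 0 to 23 genes and 0 members. For the set-by-agent term 8 of 27 tested members were called. There a minimum of 5 FPKM left 1 of 11 tested members, beside 1050 of 7453 genes. Leaving out 1 library gave 5 to 9 members. With the replicate block 1211 genes, 5 members and 9 pathway genes passed in the first set. The block left 0 genes and 0 members called in the other, and 5 members for the set-by-agent term. Same-numbered libraries correlated at 0.0075 to 0.0175 (first set) and 0.0166 to 0.0457 (second set). Differently numbered ones correlated at −0.0261 to 0.0088 (first set) and −0.0534 to 0.0137 (second set). Whether same-numbered libraries were paired is not stated in the labels, and these small correlations cannot decide it.

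Of the log2 changes of named genes, 25 alternatives turned the sign, 912 kept direction and side of the threshold, 73 lost a call and 18 gained one. Without transcripts of only 1 table, the second-set change was −0.24 for IRF1 and 0.079 for TYK2. It was −2.5e-06 for IFI6 with equal sums and 0.00019 for IRF7 with quantile normalisation. Leaving out 1 library turned the sign of some small changes. First-set values then ran from −0.14 to 0.22 for IRF1 and from −0.46 to 0.0103 for IFNAR1. Second-set values ran from −0.10 to 0.26 for IFI6, −0.10 to 0.0706 for IRF7, −0.85 to 0.0744 for IRF9, −0.10 to 0.0452 for SP110, −0.0551 to 0.35 for PIAS3, −0.0760 to 0.0730 for RNF213, −0.0587 to 0.14 for GMPR, −0.0815 to 0.0195 for JAK1 and −0.0356 to 0.0858 for IFNAR1. Many members stand below 5 FPKM, and without read counts the precision of such values is unknown.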
